A study of Mus musculus with 12 samples.

Results

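Primary mouse hepatocytes that received an siRNA against Hnf4a together with one against Cebpa were compared with hepatocytes that received the Cebpa siRNA alone. The comparison uses 6 of the 12 libraries of the study, 3 labelled siHnf4a siCebpa and 3 labelled siCebpa, matched by the number of the mouse that gave the cells. All genes that passed a filter on low counts were its members, 15090 of the 55385 identifiers in the files. The other 6 libraries, 3 treated with the Hnf4a siRNA alone (siHnf4a) and 3 with a control siRNA (siCon), showed what the same Hnf4a siRNA did where Cebpa had not been targeted. An siRNA is a short duplex RNA that directs degradation of the matching transcript. Cells of all 4 groups were freshly isolated from 3 mice, plated on collagen and treated for 48 h. Culture was in Williams' E medium to which 100 nM dexamethasone, 5% ITS, 2 mM glutamine and serum (FBS, 10%) had been added, so every value below comes from cultured cells under a glucocorticoid. The strain, sex and age of the mice and the number of siRNA duplexes per target are not stated by the sources used. Nor do they state whether the total amount of siRNA was the same in single and double treatments, so an effect of that amount, were it unequal, cannot be told apart from one of the Hnf4a siRNA.

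HNF4A is a nuclear receptor that binds DNA as a homodimer and switches on many genes that mark the differentiated hepatocyte, among them apolipoproteins, clotting factors and cytochromes P450. C/EBPA is a basic leucine zipper transcription factor enriched in liver and fat, known for its part in the expression of albumin and of enzymes of glucose and nitrogen metabolism. Both sit in a network of liver factors that regulate each other.

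Levels below are counts-per-million (CPM) scaled between libraries, given in the order mouse 1, mouse 2, mouse 3. Changes are log2 fold changes from edgeR's quasi-likelihood test with mouse as a term, with p values adjusted by Benjamini-Hochberg over all 15090 genes and a threshold of 0.05. The value after ± is an approximate standard error, derived as the absolute log2 fold change over the square root of the F value of that test. Genes are said to rise or fall only past that threshold. Library totals were 22453445 to 24229630 estimated counts in siHnf4a siCebpa and 23809523 to 23933735 in siCebpa, and 23885931 to 24806320 in siHnf4a and 23731068 to 25008195 in siCon. The label of the cells was checked on 12 hepatocyte markers, all measured, whose summed level ran from 9380 to 13400 CPM in siHnf4a siCebpa, against 24200 to 30300 CPM in siCebpa. Most of each sum came from Alb and Trf, both lower in siHnf4a siCebpa, while 4 of the 12 markers were higher there.

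The levels of both targeted transcripts check the labels. Hnf4a (GRCm38 chromosome 2, 163506808 to 163572910, plus strand; ENSMUSG00000017950.16) was at 40.1, 33.5 and 34.1 CPM in siHnf4a siCebpa cultures, against 191, 149 and 293 CPM in siCebpa cultures. The knockdown was seen in all 3 mice and the groups did not overlap. The log2 fold change was -2.52 ± 0.27 (edgeR adjusted p = 0.000121). Cebpa (GRCm38 chromosome 7, 35119293 to 35121928, plus strand; ENSMUSG00000034957.10) was at 109, 88.98 and 84.5 CPM in siHnf4a siCebpa, against 33.7, 30.3 and 26.1 CPM in siCebpa. Although both groups received the Cebpa siRNA, its transcript was higher in the double treatment in every mouse, by 1.65 ± 0.12 log2 units (edgeR adjusted p = 1.48e-05). In cultures without Cebpa siRNA it was at 206, 204 and 234 CPM in siHnf4a and 179, 211 and 189 CPM in siCon. The groups compared thus differ in the mRNA of both targets, and an effect of less Hnf4a cannot be told apart from one of more Cebpa mRNA relative to siCebpa.

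Alb (GRCm38 chromosome 5, 90460897 to 90476602, plus strand; ENSMUSG00000029368.10), the gene of serum albumin, was at 7602, 4569 and 4189 CPM in siHnf4a siCebpa, against 13907, 6688 and 6043 CPM in siCebpa. It was lower with both siRNAs in 3 of 3 mice, while the groups overlapped, with mouse 1 high in both. The log2 fold change was -0.66 ± 0.16 (edgeR adjusted p = 0.0127; 5453 ± 1870.4 CPM against 8879 ± 4366 CPM, SD, n = 3 each). This call rested on the pairing by mouse and on single libraries: the adjusted p was 0.267 without the mouse term, 0.0761 without siHnf4a siCebpa replicate 2 and 0.0508 without siCebpa replicate 1, and 0.0569 with limma on log2 TPM. With no Cebpa siRNA, Alb was at 10802, 9500.3 and 5202 CPM in siHnf4a and 9787, 7754 and 6174 CPM in siCon.

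**Figure D1:**
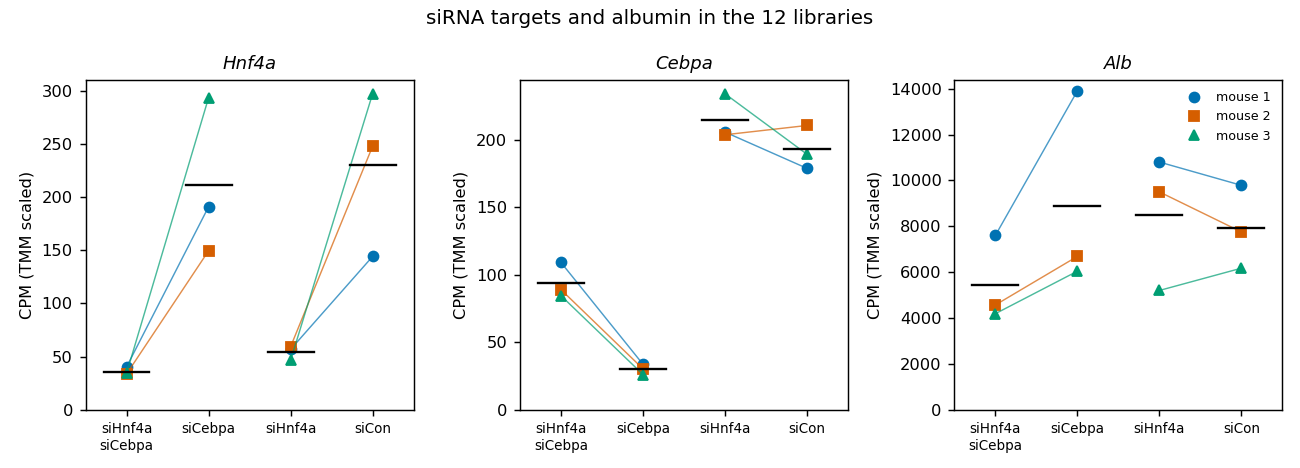
Levels of Hnf4a, Cebpa and Alb in CPM in the 12 libraries. Points are libraries with 1 symbol per mouse, lines join libraries of 1 mouse within a comparison, and black bars are group means (n = 3). Hnf4a is at 33.5 to 40.1 CPM in siHnf4a siCebpa and at 149 to 293 CPM in siCebpa. Cebpa is lowest in siCebpa, and each line for Alb falls towards siHnf4a siCebpa from siCebpa.

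Adding the Hnf4a siRNA changed genes in both directions in similar numbers. Of 15090 genes 4121 passed the threshold (27.3%), 1964 higher (13%) and 2157 lower (14.3%) in siHnf4a siCebpa than in siCebpa. At least 2-fold changes numbered 325 higher (2.15%) and 443 lower (2.94%). All 3 siHnf4a siCebpa libraries were above all 3 siCebpa libraries for 2086 genes (13.8%) and below them for 2295 (15.2%). Without the mouse term 983 genes were higher and 976 lower, all of them among the 4121. On the deposited length-normalised values (log2 TPM, limma-trend) 2400 were higher and 786 lower, so that 75.3% of calls were higher against 47.7% on counts, and the median over all genes was 0.095 against -0.018. The change ran with transcript length: its median was -0.116 over the 1887 genes with the shortest transcripts and 0.073 over the 1887 with the longest. With that trend removed per library, an alternative chosen after seeing the data, 1956 genes were higher and 2035 lower, 3677 of them shared with the 4121.

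Among called genes with a mean of at least 10 CPM over the compared libraries and 1 sign in all 3 mice, those that fell furthest were mostly products of the differentiated liver: a urinary pheromone protein, cytochromes P450, plasma proteins and conjugating enzymes. Mup20, the major urinary protein known as darcin, was at 1.27, 2.597 and 0.301 CPM in siHnf4a siCebpa, against 60.7, 204 and 136 CPM in siCebpa. Cyp2a12, a P450 that hydroxylates bile acids, was at 2.71, 3.12 and 1.85 CPM, against 119, 94.2 and 42.7 CPM in siCebpa. For both, the highest double-treated library lay far below the lowest siCebpa library. The log2 fold change was -6.55 ± 0.41 for Mup20 and -5.02 ± 0.20 for Cyp2a12 (edgeR adjusted p = 6.75e-06 and 4.42e-07). Serpinf2, which encodes the plasmin inhibitor alpha-2-antiplasmin, was at 7.2005, 8.699 and 6.57 CPM, against 106, 128 and 217 CPM in siCebpa (-4.28 ± 0.27, edgeR adjusted p = 6.75e-06). Proz, the gene of protein Z, a cofactor that restrains factor Xa, was at 2.39, 0.995 and 1.12 CPM, against 33.8, 15.7 and 10.8 CPM in siCebpa (-3.69 ± 0.19). Rdh7, a retinol dehydrogenase (-4.05 ± 0.53), Cyp3a44, one of a set of near-identical P450 genes (-3.75 ± 0.48), and Acat3, an acetyl-CoA acetyltransferase (-3.68 ± 0.12), followed. Sult1a1, a phenol sulfotransferase (-3.59 ± 0.49), Mettl7b, a thiol methyltransferase (-3.57 ± 0.33), and Glyat, which couples acyl groups to glycine (-3.26 ± 0.22), were the conjugating enzymes among the 12 largest falls. Their edgeR adjusted p values ran from 1.09e-07 for Acat3 to 0.000499 for Sult1a1.

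The other genes among these 12, the processed pseudogene Pgam1-ps2 and the antisense transcript Gm11175, were uneven within the groups. Pgam1-ps2 was at 0, 0 and 4.04 CPM in siHnf4a siCebpa, against 16.3, 18.6 and 34.7 CPM in siCebpa, and Gm11175 at 0, 0 and 14.2 CPM, against 24.8, 14.9 and 27.9 CPM. The mouse 3 library stood apart in the double treatment for each. Their log2 fold changes of -5.30 and -3.48 (edgeR adjusted p = 0.00588 and 0.0191) became -11.34 and -11.64 without siHnf4a siCebpa replicate 3, both called. Those fits set siCebpa against libraries at 0, so the values depend on the prior count and are no bound. Without the mouse term both calls were lost (adjusted p = 0.158 and 0.329), and Gm11175 also lost its call without either of the other siHnf4a siCebpa libraries or without siCebpa replicate 1 or 2, at adjusted p up to 0.0702. Reads of a pseudogene and its parent, or of overlapping strands, cannot be told apart in these counts.

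The largest rises held a retinol-oxidising enzyme, immune and cell surface genes, and enzymes of nitrogen and one-carbon metabolism. Adh7, a retinol and alcohol dehydrogenase best known from the stomach, was at 29.7, 54.9 and 82.7 CPM in siHnf4a siCebpa, against 2.38, 2.57 and 4.12 CPM in siCebpa. Every double-treated library was above every siCebpa library. The log2 fold change was 4.15 ± 0.15 (edgeR adjusted p = 2.98e-07). Bhmt, which remethylates homocysteine with betaine, was at 114, 271 and 76.3 CPM, against 19.4, 33.01 and 10.6 CPM in siCebpa (2.81 ± 0.21, edgeR adjusted p = 1.48e-05). Tnfsf10, the death ligand TRAIL, was at 49.4, 57.6 and 51.5 CPM, against 12.1, 7.72 and 1.505 CPM in siCebpa (3.02 ± 0.45), with the wider spread between mice in siCebpa. Plat, tissue plasminogen activator, was at 64.9, 226 and 302 CPM, against 16.9, 51.2 and 52.2 CPM in siCebpa (2.22 ± 0.11). Acod1, which makes itaconate (3.09 ± 0.68), Itga7, an integrin that binds laminin (3.02 ± 0.42), Arg2, the mitochondrial arginase (2.41 ± 0.42), and Nol3, an inhibitor of apoptosis (2.40 ± 0.23), also rose. C1qtnf6, a secreted C1q-like protein (2.32 ± 0.15), Slc43a2, an amino acid transporter (2.17 ± 0.32), Il1f9, the cytokine interleukin-36 gamma (2.17 ± 0.27), and Cdc42ep2, an effector of the GTPase CDC42 (2.14 ± 0.31), completed the 12. Adjusted p ran from 2.98e-07 for Adh7 to 0.00737 for Acod1 (edgeR). Arg2 and Plat lost the call without the mouse term (adjusted p = 0.13 and 0.054). Itga7 and Mettl7b overlap on opposite strands of chromosome 10 and moved in opposite directions, and the sources used do not state whether counting used strand.

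**Figure D2:**
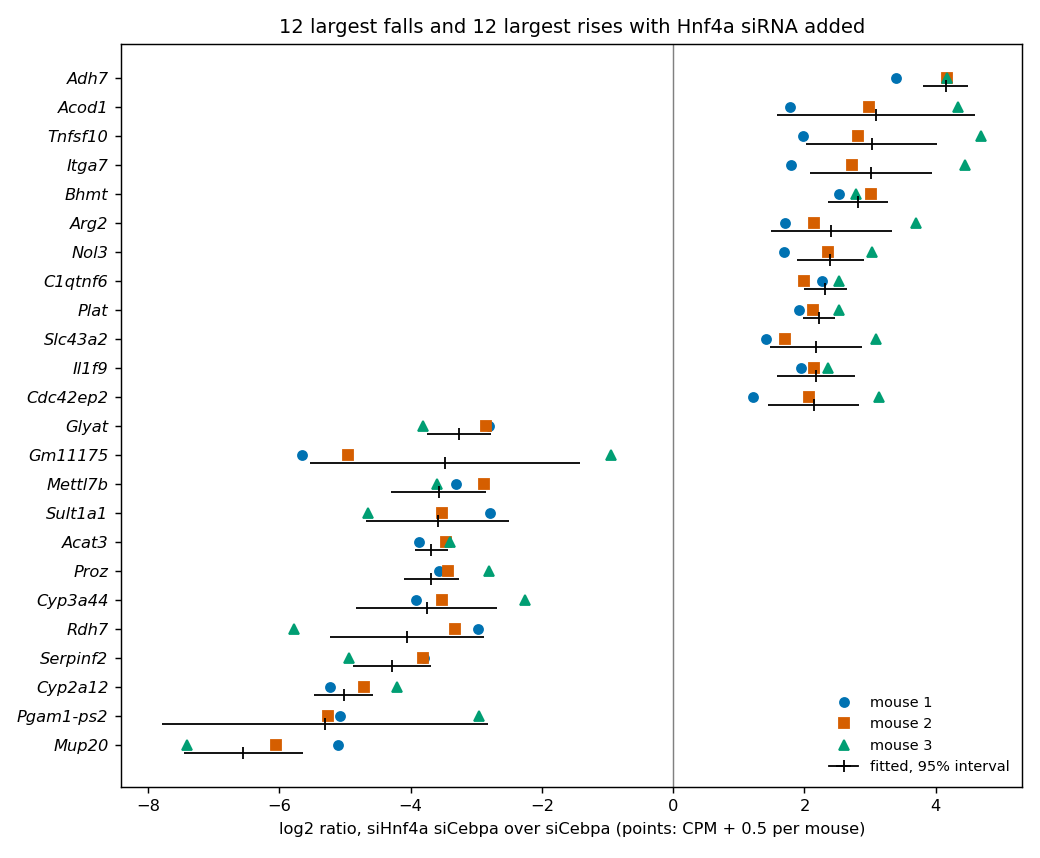
The 12 largest falls and 12 largest rises among called genes with a mean of at least 10 CPM and 1 sign in all 3 mice. Coloured points are log2 ratios of siHnf4a siCebpa over siCebpa per mouse, computed on CPM + 0.5, and black bars are the fitted log2 fold change with its 95% interval. Points of Plat and C1qtnf6 lie close together, while those of Gm11175 and Rdh7 spread widely between mice.

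Windows of 300 bases around the annotated start of each gene, 250 before and 50 after, were searched for words known to bind HNF4 and C/EBP proteins (RefSeq sequences of GRCm38.p6, matched by symbol, 10744 of the 15077 distinct symbols tested). The HNF4 word CAAAGTCCA, on either strand in any window of a gene, stood in 19 of 322 genes that fell at least 2-fold (5.90%). It stood in 0 of 221 that rose at least 2-fold and in 67 of the 10744 tested (0.624%). The related word CAAAGTTCA was in 11 of the 322 (3.42%), 1 of the 221 (0.452%) and 121 of all 27025 (0.448%). The C/EBP word TTGCGCAA was in 0 of the 322, 2 of the 221 (0.905%) and 35 of the 10744 (0.326%). The looser TTGCNNAA, which contains it, was in 52 of the 322 (16.1%), 31 of the 221 (14.0%) and 1114 of the 10744 (10.4%). These shares are a description of the letters in these windows. Among the 12 largest falls 8 genes had a window, as did 8 of the 12 largest rises, and none of these genes held CAAAGTCCA or CAAAGTTCA there.

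Not all chromosomes entered the choice of windows shown for the 9-letter HNF4 words, so carriers that fell further may be missing. For each word, windows of carriers with large falls are shown. These carriers were chosen after their values were seen, with at least 10 CPM and a fall in all 3 mice. They are Pipox, a peroxisomal oxidase of amino acid breakdown, and Cyp2c70, the P450 that makes muricholic acids in rodents, for CAAAGTCCA, and Cfhr2, a complement factor H relative, and Ftcd, an enzyme of histidine breakdown, for CAAAGTTCA. Each runs 5′ to 3′ on the strand of the gene, and capitals mark the word or its reverse complement.
Pipox (chr11:77893823-77894122, minus strand): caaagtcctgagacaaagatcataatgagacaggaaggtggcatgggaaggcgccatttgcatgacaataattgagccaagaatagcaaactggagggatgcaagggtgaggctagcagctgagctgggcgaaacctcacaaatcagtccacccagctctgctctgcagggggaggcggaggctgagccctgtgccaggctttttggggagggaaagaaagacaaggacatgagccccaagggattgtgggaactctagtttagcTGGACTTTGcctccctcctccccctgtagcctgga
Cyp2c70 (chr19:40187237-40187536, minus strand): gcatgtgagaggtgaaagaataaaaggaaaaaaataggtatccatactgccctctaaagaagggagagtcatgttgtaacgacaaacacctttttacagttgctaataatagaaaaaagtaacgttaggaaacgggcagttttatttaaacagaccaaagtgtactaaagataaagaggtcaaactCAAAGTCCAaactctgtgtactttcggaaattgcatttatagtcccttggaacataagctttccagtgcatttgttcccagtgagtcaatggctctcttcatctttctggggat
Cfhr2 (chr1:139858650-139858949, minus strand): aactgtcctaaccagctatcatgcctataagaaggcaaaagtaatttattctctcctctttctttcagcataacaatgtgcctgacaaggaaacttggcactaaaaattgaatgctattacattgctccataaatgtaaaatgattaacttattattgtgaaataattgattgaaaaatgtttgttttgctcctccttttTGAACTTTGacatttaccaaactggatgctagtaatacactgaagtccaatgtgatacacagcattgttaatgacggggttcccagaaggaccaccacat
Ftcd (chr10:76575398-76575697, plus strand): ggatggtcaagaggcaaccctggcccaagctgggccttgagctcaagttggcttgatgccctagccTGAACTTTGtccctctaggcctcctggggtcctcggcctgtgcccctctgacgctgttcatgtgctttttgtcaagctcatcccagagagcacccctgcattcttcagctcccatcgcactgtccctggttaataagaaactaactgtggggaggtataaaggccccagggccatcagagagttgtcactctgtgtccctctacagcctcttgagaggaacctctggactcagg
In Pipox the word began 15 bases after the start, on the opposite strand, and in Cyp2c70 it began 64 bases before the start on the same strand. In Cfhr2 and Ftcd it began 50 and 184 bases before the start, on the opposite strand. Pipox was at 6.09, 2.99 and 3.26 CPM in siHnf4a siCebpa, against 30.9, 27.3 and 32.8 CPM in siCebpa (-2.90 ± 0.20, edgeR adjusted p = 8.52e-06). Cyp2c70 was at 8.04, 13.7 and 10.4 CPM, against 35.5, 67.7 and 132 CPM in siCebpa (-2.74 ± 0.28), and Ftcd at 31.8, 25.6 and 14.8 CPM, against 111, 105 and 118 CPM in siCebpa (-2.24 ± 0.22). For these 3 genes the 3 double-treated libraries lay below the 3 siCebpa libraries. Cfhr2 changed by -2.77 ± 0.38, and reads of the near-identical Cfhr genes may be split between them.

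Liver transcription factors moved in both directions. Of 45 tested, 9 were lower and 11 higher, with a median of 0.12 against -0.018 over all genes. Counts for this and later lists are to be read beside the shares over all 15090 genes, 14.3% lower and 13% higher. Without the mouse term 976 of all genes were lower and 983 higher. On log2 TPM 786 of 14008 were lower and 2400 higher. Creb3l3, a membrane-bound factor that drives genes of triglyceride clearance, was at 7.56, 7.31 and 4.17 CPM in siHnf4a siCebpa, against 33.4, 26.97 and 30.8 CPM in siCebpa (-2.26 ± 0.21, edgeR adjusted p = 6.16e-05). The groups did not overlap. Other falls were those of Mlxipl, the glucose-sensing factor ChREBP (-0.61 ± 0.13), Nr2f6, an orphan nuclear receptor (-0.58 ± 0.10), and Stat5b, which carries growth hormone signals (-0.46 ± 0.06). Nr5a2, the orphan receptor LRH-1, was at 117, 120.4 and 96.3 CPM, against 71.97, 68.3 and 42.004 CPM in siCebpa, the largest rise of the list (0.89 ± 0.12, edgeR adjusted p = 0.000385). Bcl6, a repressor (0.73 ± 0.09), Klf15, a regulator of amino acid use (0.70 ± 0.11), Gata6 (0.49 ± 0.09), Foxa1 (0.36 ± 0.08) and Stat3 (0.30 ± 0.07) rose as well. These further calls were lost in at least 1 fit that left out a library or the mouse term: Nr1i2 (-0.89), Atf5 (-0.52), Cebpb (-0.44) and Cebpg (-0.28), lower, and Gata4 (0.32), Zhx2 (0.33), Ahr (0.60) and Nr0b2 (0.63), higher, with adjusted p up to 0.196 (Atf5) when a library was left out and up to 0.699 (Nr0b2) without the mouse term, and Gata4 at 0.20 without siCebpa replicate 1. Foxa2 (0.32 ± 0.12), Rxra, the partner of many nuclear receptors (0.21 ± 0.10), and Ppara, the fatty acid receptor (0.14 ± 0.18), did not pass (edgeR adjusted p = 0.0723, 0.138 and 0.621). Foxa2 was called with DESeq2 (adjusted p = 0.0494), with no filter on low counts (0.0249) and in the 6 compared libraries alone (0.042).

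Lists of secreted liver proteins held more lower than higher members on counts with the mouse term, and of the lists described the share lower was largest for lipoprotein genes. Of 30 lipoprotein genes 20 were lower and 4 higher (13 and 2 without the mouse term), with a median of -1.06. Apob, the structural protein of very-low-density lipoprotein, was at 168, 146 and 146 CPM in siHnf4a siCebpa, against 729, 440.3 and 444 CPM in siCebpa (-1.78 ± 0.15, edgeR adjusted p = 3.79e-05). Apoc2, the activator of lipoprotein lipase, was at 7.2005, 18.3 and 30.1 CPM, against 38.3, 124 and 204 CPM in siCebpa (-2.66 ± 0.16, edgeR adjusted p = 6.75e-06). Each mouse showed the fall, and the groups overlapped for neither gene. Mttp, which loads lipid onto APOB (-1.67 ± 0.15), Cideb, which acts in the same assembly (-3.03 ± 0.21), Tm6sf2 (-1.89 ± 0.17), Apom (-3.07 ± 0.70), Apoe (-1.24 ± 0.15) and Apoa1 of high-density lipoprotein (-1.41 ± 0.20) fell too (edgeR adjusted p from 8.52e-06 for Cideb to 0.00852 for Apom). The 4 that rose, named after their values were seen, were Pltp, the phospholipid transfer protein (1.21 ± 0.25), Abca1, the cholesterol exporter (0.98 ± 0.21), Angptl8 (0.57 ± 0.12) and Apof (0.41 ± 0.11). Abca1 and Apof lost the call without the mouse term (adjusted p = 0.0641 and 0.089), and Apof also without siHnf4a siCebpa replicate 1 or 3 or siCebpa replicate 2, at adjusted p up to 0.0737.

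Genes of plasma carriers and protease inhibitors numbered 39, with 21 lower and 1 higher (7 and 0 without the mouse term), with a median of -0.66. On log2 TPM 13 were lower, and without siCebpa replicate 1, 3 were higher. Trf, the iron carrier transferrin, was at 3947, 2970.2 and 5070.4 CPM in siHnf4a siCebpa, against 13961, 15784 and 17441 CPM in siCebpa (-2.0 ± 0.15, edgeR adjusted p = 1.51e-05). No double-treated library came near the siCebpa libraries. Igfbp4, an IGF-binding protein (-2.51 ± 0.26), Igf1 itself (-1.62 ± 0.26) and Serpina1a, one of the near-identical alpha-1-antitrypsin genes (-1.48 ± 0.27), fell in all 3 mice. The 1 rise was that of Afp, the fetal albumin relative, at 10.1, 15.97 and 23.2 CPM, against 5.101, 6.39 and 8.63 CPM in siCebpa (1.24 ± 0.19, edgeR adjusted p = 0.00107), a call lost without the mouse term (adjusted p = 0.127). Of 9 major urinary proteins tested 4 were lower and 0 higher. Beside Mup20, Mup3 fell (-1.65 ± 0.19), and the count was 2 without siHnf4a siCebpa replicate 1 and 2 without the mouse term. Members of this cluster share long stretches of sequence, so reads may be split between them.

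Genes of several steps of the clotting cascade fell. Of 33 genes 14 were lower and 5 higher (5 and 1 without the mouse term), with a median of -0.15. Beside Serpinf2 and Proz, F12 of the contact pathway was at 24.1, 9.61 and 7.22 CPM in siHnf4a siCebpa, against 192, 86.9 and 41.7 CPM in siCebpa (-2.91 ± 0.19, edgeR adjusted p = 8.00e-06). F9 (-1.04 ± 0.20), F7 (-1.02 ± 0.22), prothrombin F2 (-0.85 ± 0.13) and antithrombin Serpinc1 (-0.73 ± 0.10), named after their values were seen, fell as well, though these 4 lost the call without the mouse term (adjusted p = 0.138, 0.0773, 0.234 and 0.211). Plat was the largest of the 5 rises, of which 3 were called without siHnf4a siCebpa replicate 2. Of 28 complement genes 11 were lower and 1, Cd59a, higher, with a median of -0.37 (5 lower and 1 higher without the mouse term). The higher count was 3 without siCebpa replicate 1 and 0 on log2 TPM. Mbl2, a mannose-binding lectin that starts the lectin pathway, was at 273, 165 and 352 CPM, against 585, 424 and 716 CPM in siCebpa (-1.15 ± 0.12, edgeR adjusted p = 8.90e-05), and Cfi, which cleaves C3b, changed by -1.15 ± 0.15. Of 23 acute phase genes 5 were lower and 2 higher (0 and 1 without the mouse term), with a median of -0.18. The lower count was 3 without siHnf4a siCebpa replicate 1 and 3 on log2 TPM, and the higher count was 4 without siCebpa replicate 1 and 1 without siCebpa replicate 2. Hamp, the iron hormone hepcidin, was at 345, 429.7 and 905 CPM, against 194, 123 and 88.8 CPM in siCebpa (1.85 ± 0.43, edgeR adjusted p = 0.0101). Mouse 3 gave both the highest double-treated and the lowest siCebpa level of Hamp, and the call was lost without siCebpa replicate 2 (adjusted p = 0.0526).

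**Figure D3:**
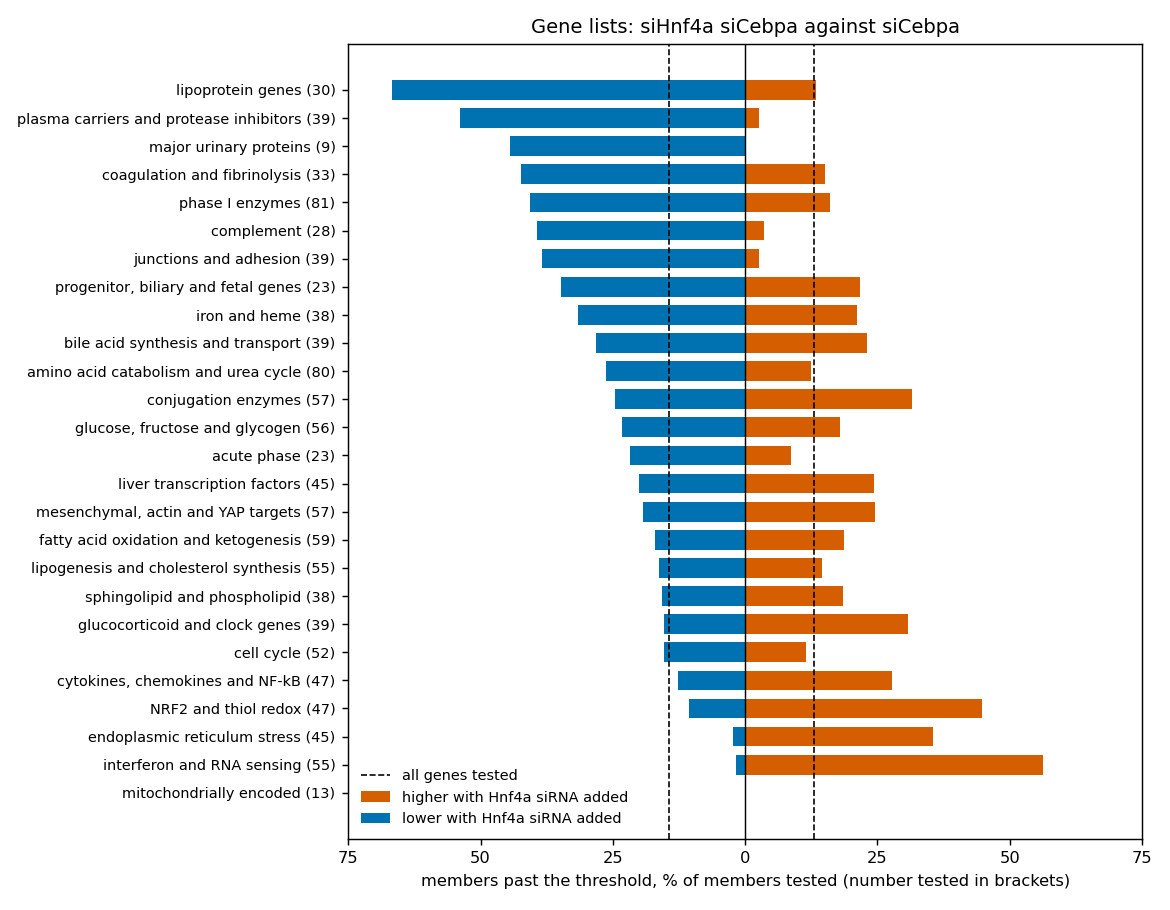
Share of the tested members of each gene list that were higher (right) or lower (left) in siHnf4a siCebpa than in siCebpa, in percent of members tested, with the number tested in brackets. Dashed lines mark the shares over all 15090 genes, 13% higher and 14.3% lower. Lipoprotein genes reach furthest to the lower side and interferon genes to the higher side.

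Phase I enzymes of drug metabolism fell more often than they rose. Of 81 tested 33 were lower and 13 higher (19 and 9 without the mouse term), with a median of -0.28. P450s of subfamilies 2a, 2c, 2d and 3a led the falls, with Cyp2d9 at 0.318, 0.346 and 0 CPM in siHnf4a siCebpa, against 9.68, 4.67 and 2.66 CPM in siCebpa (-4.67 ± 0.49), and Cyp2c67 (-4.36 ± 0.43). Many of these genes have near-identical neighbours, so values of single genes are uncertain. Beside Adh7, Aox1, an aldehyde oxidase (0.88 ± 0.07), and Cbr3, a carbonyl reductase (1.06 ± 0.16), rose (edgeR adjusted p = 2.68e-05 and 0.000988). Of 57 conjugation enzymes 14 were lower and 18 higher (10 and 6 without the mouse term), with a median of -0.04, and 11 were higher without siCebpa replicate 2. Sulfotransferase, glucuronosyltransferase 2b and glycine conjugation genes were among the lower ones. The higher ones included Gstm3 at 50.2, 35.5 and 30.9 CPM, against 16.8, 9.56 and 14.7 CPM in siCebpa (1.51 ± 0.20, edgeR adjusted p = 0.000368), Gsta1 (0.74 ± 0.10) and Gsta2 (0.78 ± 0.12), glutathione transferases with close relatives. Gsta1 and Gsta2 lost the call without the mouse term (adjusted p = 0.246 and 0.302).

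Bile acid genes went both ways. Of 39 tested 11 were lower and 9 higher (6 and 4 without the mouse term), with a median of -0.10. Baat, which joins bile acids to taurine or glycine, was at 2.11, 1.13 and 0.816 CPM in siHnf4a siCebpa, against 25.9, 11.9 and 9.83 CPM in siCebpa (-3.53 ± 0.26, edgeR adjusted p = 1.46e-05), and Slc27a5, which activates bile acids with coenzyme A, changed by -3.50 ± 0.32. Abcc3, an exporter on the sinusoidal side (0.75 ± 0.14), and Abcb4, the canalicular phospholipid floppase, named after its values were seen (1.89 ± 0.13), rose (edgeR adjusted p = 0.00331 and 8.40e-06).

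Of 80 amino acid genes 21 were lower and 10 higher (9 and 5 without the mouse term), with a median of -0.07. The higher count was near the share over all genes (13%, with 14.3% lower). Without siHnf4a siCebpa replicate 3, 12 were lower. On log2 TPM 9 were lower and 14 higher, while over all 14008 genes fitted there 786 were lower and 2400 higher. Uroc1 (-3.67 ± 0.31) and Ftcd of histidine breakdown fell, as did Pipox. Tdo2, which opens the ring of tryptophan, was at 28.5, 25.2 and 17.7 CPM in siHnf4a siCebpa, against 11.8, 6.003 and 7.04 CPM in siCebpa (1.52 ± 0.31, edgeR adjusted p = 0.00504). Among the genes of the urea cycle, named after their values were seen, Cps1 of the first step (1.36 ± 0.26), Ass1 (0.72 ± 0.13) and Arg1 (1.22 ± 0.40) were higher, while Otc was lower (-1.14 ± 0.32; edgeR adjusted p = 0.00352, 0.00269, 0.0426 and 0.0233). Cps1 was at 233, 254 and 73.5 CPM, against 130.2, 77.5 and 21.8 CPM in siCebpa. It was higher in 3 of 3 mice, and the groups overlapped. Otc was near the count filter of 0.418 CPM, at 0.398, 0.303 and 0.687 CPM, against 1.25, 0.772 and 0.974 CPM in siCebpa. Without the mouse term Cps1, Arg1 and Otc lost the call (adjusted p = 0.235, 0.554 and 0.0855). The Arg1 change became 2.30 without siCebpa replicate 1 and 0.73 without siCebpa replicate 2, and only the first of these fits, among the 6 that left out a library, called it. Otc lost the call in 4 of those 6, at adjusted p up to 0.0954, and on log2 TPM (adjusted p = 0.232).

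In the list of glucose, fructose and glycogen genes 13 of 56 were lower and 10 higher (3 and 3 without the mouse term), with a median of -0.11. Without siHnf4a siCebpa replicate 3, 7 were lower, and 5 were higher without siHnf4a siCebpa replicate 2. On log2 TPM 4 were lower and 15 higher, beside 786 lower and 2400 higher over all 14008 genes. Tkfc, the triokinase of fructose breakdown, was at 37.6, 38.8 and 38.5 CPM in siHnf4a siCebpa, against 134, 147 and 216 CPM in siCebpa (-2.10 ± 0.13, edgeR adjusted p = 6.88e-06), and its 3 double-treated libraries were nearly equal. Pfkfb1, which sets fructose 2,6-bisphosphate, rose (1.24 ± 0.17, edgeR adjusted p = 0.000557). Of 59 genes of fatty acid oxidation and ketogenesis 10 were lower and 11 higher (3 and 5 without the mouse term), with a median of 0. Of 55 genes of lipogenesis and cholesterol synthesis 9 were lower and 8 higher (2 and 2), with a median of 0. The lipogenesis counts were near the shares over all genes, 14.3% lower and 13% higher. Falls called in these lists numbered 5 without siHnf4a siCebpa replicate 3 in the first and 5 without siHnf4a siCebpa replicate 2 in the second, where 4 rises were called without siHnf4a siCebpa replicate 3. On log2 TPM 6 were lower and 12 higher in the first, and 4 lower and 8 higher in the second. In the last list Acss2, which makes acetyl-CoA from acetate (1.32 ± 0.12), and Elovl6, a fatty acid elongase (0.77 ± 0.09), rose (edgeR adjusted p = 5.94e-05 and 0.000199). Among 38 genes of sphingolipid and phospholipid metabolism 6 were lower and 7 higher (3 and 4 without the mouse term, 2 and 11 on log2 TPM), and 3 were lower without siHnf4a siCebpa replicate 2. Smpd3, a neutral sphingomyelinase, was at 0.517, 1.298 and 1.93 CPM, against 12.5, 17.2 and 22.6 CPM in siCebpa (-3.84 ± 0.27, edgeR adjusted p = 1.17e-05). Acer2, an alkaline ceramidase, was at 26.5, 25.1 and 21.9 CPM, against 8.47, 7.42 and 6.68 CPM in siCebpa (1.70 ± 0.10, edgeR adjusted p = 5.36e-06). Neither pair of groups overlapped.

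Interferon and RNA sensing genes were more often higher than lower. Of 55 tested 31 were higher and 1 lower (10 and 1 without the mouse term), with a median of 0.50. Oas3, which makes 2-5 oligoadenylate in response to double-stranded RNA, was at 15.7, 58.5 and 144 CPM in siHnf4a siCebpa, against 3.76, 21.3 and 25.4 CPM in siCebpa (2.07 ± 0.29, edgeR adjusted p = 0.000538). It was higher with both siRNAs in 3 of 3 mice, but mouse 1 was low in both groups, so the groups overlapped and the call was lost without the mouse term (adjusted p = 0.236). Oasl2 was at 43.4, 73.1 and 87.9 CPM, against 17.1, 33.6 and 17.7 CPM in siCebpa (1.56 ± 0.22, edgeR adjusted p = 0.000669), without overlap. Mx1, an antiviral GTPase (1.74 ± 0.36), and, named after their values were seen, Zbp1, a nucleic acid sensor (1.45 ± 0.37), Cxcl10, an interferon-induced chemokine (1.09 ± 0.16), and Irf1 (1.02 ± 0.14) rose. Cxcl10 lost the call without the mouse term (adjusted p = 0.183), and Zbp1 without siHnf4a siCebpa replicate 3 (adjusted p = 0.0616), while without siCebpa replicate 3 its change was 0.94. The exception was Irgm1, an interferon-induced GTPase, at 31.3, 38.5 and 32.6 CPM, against 90.3, 151 and 186 CPM in siCebpa (-2.0 ± 0.18, edgeR adjusted p = 5.29e-05). The count of interferon genes higher ran from 21 without siCebpa replicate 3 to 33 without siCebpa replicate 1.

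Stress genes too rose more often than they fell. The list of NRF2 and thiol redox genes had 47 tested, of which 21 were higher and 5 lower (9 and 3 without the mouse term), with a median of 0.29. Srxn1, which repairs peroxiredoxins, was at 1886, 2158 and 1705 CPM in siHnf4a siCebpa, against 983, 1139.7 and 1040.2 CPM in siCebpa (0.86 ± 0.12, edgeR adjusted p = 0.000704). Nqo1, a quinone reductase (0.82 ± 0.07), Gclc, the rate-limiting enzyme of glutathione synthesis (0.84 ± 0.12), and Nfe2l2, the gene of NRF2 itself (0.80 ± 0.11), named after their values were seen, rose. Ftl1, the light chain of ferritin, was at 1896, 1849.9 and 1597 CPM, against 5147, 6190.4 and 7091 CPM in siCebpa (-1.78 ± 0.12, edgeR adjusted p = 8.40e-06), the largest of 5 falls, of which 3 were called without siHnf4a siCebpa replicate 3 and 3 on log2 TPM. Endoplasmic reticulum stress was read from 45 genes, of which 16 were higher and 1, Sesn2, was lower (9 and 0 without the mouse term), with a median of 0.13, and 9 were higher without siCebpa replicate 3. The lower count was 0 without siHnf4a siCebpa replicate 2 and on log2 TPM, and 2 without siCebpa replicate 1 and with the length trend removed. Creld2 (0.67 ± 0.08), Dnajb9, a partner of the chaperone BiP (0.84 ± 0.08), and the stress sensor Ern1 (0.75 ± 0.07) rose (edgeR adjusted p = 0.000219, 6.41e-05 and 6.09e-05). Hspa5, which encodes BiP, did not pass, at 1104 ± 73.9 CPM in siHnf4a siCebpa against 1018 ± 43.6 CPM in siCebpa (SD, n = 3 each; edgeR adjusted p = 0.269), but was called on log2 TPM (adjusted p = 0.0238, limma). Of 47 cytokine, chemokine and NF-kB genes 13 were higher and 6 lower (4 and 2 without the mouse term, 14 and 2 on log2 TPM), with a median of 0.24, and 3 were higher without siCebpa replicate 3 and 2 lower without siHnf4a siCebpa replicate 2. Osmr, the oncostatin M receptor, rose (1.06 ± 0.13), and Csf1 (-0.97 ± 0.14) and Il22ra1, the interleukin-22 receptor (-1.13 ± 0.11), fell (edgeR adjusted p = 0.000223, 0.0007 and 7.60e-05).

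The medium held dexamethasone, so genes known to respond to glucocorticoids and clock genes were read as a list. Of 39, 12 were higher and 6 lower (5 and 2 without the mouse term), with a median of 0.28, and 2 were lower without siHnf4a siCebpa replicate 3 and 1 on log2 TPM. Tsc22d3, the glucocorticoid-induced leucine zipper, was at 41.8, 39.7 and 55.7 CPM in siHnf4a siCebpa, against 24.4, 19.8 and 27.3 CPM in siCebpa (0.93 ± 0.10, edgeR adjusted p = 0.000121), and Npas2, a clock factor, changed by 0.94 ± 0.12. Tat, the hormone-induced tyrosine transaminase, was at 37.7, 36.7 and 12.5 CPM, against 18.3, 11.3 and 3.23 CPM in siCebpa (1.49 ± 0.22, edgeR adjusted p = 0.000869). Mouse 3 was lowest in both groups, and the call was lost without the mouse term (adjusted p = 0.239).

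Genes of cell contacts fell more often than they rose on counts. Of 39 junction and adhesion genes 15 were lower and 1 higher (6 and 0 without the mouse term), with a median of -0.26. The falls called numbered 9 without siCebpa replicate 3. On log2 TPM 6 were lower and 5 higher. Cldn2, a pore-forming claudin, was at 13.5, 17.1 and 26.8 CPM in siHnf4a siCebpa, against 43.9, 37.6 and 85.6 CPM in siCebpa (-1.52 ± 0.21, edgeR adjusted p = 0.000542), and Cldn14 changed by -1.40 ± 0.17. The 1 rise was that of Cldn1, at 83.98, 42.9 and 36.4 CPM, against 39.2, 13.4 and 12.4 CPM in siCebpa (1.40 ± 0.20, edgeR adjusted p = 0.000616), a call lost without the mouse term (adjusted p = 0.0811). Of 57 mesenchymal, actin and YAP target genes 11 were lower and 14 higher (4 and 7 without the mouse term, 6 and 16 on log2 TPM), with a median of -0.06, and 5 were lower without siHnf4a siCebpa replicate 2. Ccn2 (-1.54 ± 0.30) and Amotl2 (-1.46 ± 0.16), known targets of YAP, fell. Vim, the filament protein vimentin, was at 399, 461 and 739.8 CPM, against 163, 248 and 325 CPM in siCebpa (1.13 ± 0.16, edgeR adjusted p = 0.000573), and Git1, a scaffold at focal adhesions, changed by 1.07 ± 0.09. Vim was at the threshold without the mouse term (adjusted p = 0.05). Among 23 progenitor, biliary and fetal genes 8 were lower and 5 higher (2 and 2 without the mouse term, 4 and 5 on log2 TPM), with 5 lower without siHnf4a siCebpa replicate 1 and 3 higher without siHnf4a siCebpa replicate 3. Sox4 was at 121, 149.7 and 162 CPM, against 280.4, 372 and 433 CPM in siCebpa (-1.32 ± 0.08, edgeR adjusted p = 6.75e-06), and Sox9 changed by -0.86 ± 0.17. Of 52 cell cycle genes 8 were lower and 6 higher (4 and 0 without the mouse term, 3 and 6 on log2 TPM), with a median of 0.05, and 1 was higher without siHnf4a siCebpa replicate 3. The 8 and 6 were near the shares over all genes, 14.3% lower and 13% higher. None of the 13 mitochondrially encoded genes passed in edgeR (0 at an unadjusted p under 0.05, and 0 called by DESeq2).

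Iron genes gave 12 lower and 8 higher of 38 tested (8 and 3 without the mouse term, 7 and 7 on log2 TPM), with a median of -0.03, and 4 were higher without siHnf4a siCebpa replicate 3. Beside Trf and Ftl1, Hfe2, the hemojuvelin gene that acts in hepcidin control, was lower (-1.82 ± 0.44, edgeR adjusted p = 0.0124), while Hamp was higher. The Hfe2 call was lost without siHnf4a siCebpa replicate 2 or siCebpa replicate 1 (adjusted p up to 0.0749, with a change of -1.17 in the second), without the mouse term (0.0602) and on log2 TPM (0.0735).

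Markers of other cell types summed to far less than hepatocyte markers. The 12 Kupffer cell and macrophage markers tested, of 15, summed to 94.0 to 355 CPM in siHnf4a siCebpa, against 60.9 to 371 CPM in siCebpa, with mouse 1 highest in both groups, and 0 of them passed. Of 11 sinusoidal endothelial markers Stab1 (0.97 ± 0.12) and Oit3 (0.65 ± 0.14) were higher, and the list summed to 98.3 to 143 CPM, against 82.6 to 143 CPM in siCebpa. Oit3 lost the call on log2 TPM (adjusted p = 0.0544). Stellate cell and fibroblast markers summed to 88.5 to 148 CPM, against 88.0 to 168 CPM, and cholangiocyte markers to 85.9 to 205 CPM, against 67.1 to 154 CPM in siCebpa. Of 9 lymphocyte markers 1 was abundant enough to be tested and of 6 neutrophil markers 0 were, with Gzma and Retnlg at 0 in all 12 libraries. Hepatocyte markers split: 7 of 12 were lower, among them the asialoglycoprotein receptor subunit Asgr2 (-2.99 ± 0.28), and 4 higher, Tdo2, Tat, Cps1 and Arg1 (4 and 1 without the mouse term). In such bulk libraries, fewer cells of a type and less RNA per cell cannot be told apart.

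The same Hnf4a siRNA given without Cebpa siRNA changed a similar number of genes. In siHnf4a against siCon 4533 genes passed (30.0%), 2187 higher (14.5%) and 2346 lower (15.5%), with 392 (2.6%) and 676 (4.48%) at least 2-fold. This comparison shares mice but no library with the one above. Of the genes higher in siHnf4a siCebpa, 1119 were also higher in siHnf4a, which is 57.0% of 1964 and 51.2% of 2187. Of those lower, 1214 were lower in both, 56.3% of 2157 and 51.7% of 2346. Opposite calls numbered 43 for genes higher in siHnf4a siCebpa and 40 for genes lower there. Across all 15090 genes the log2 fold changes of the 2 comparisons correlated with Pearson r = 0.617 and Spearman rho = 0.551, and across the 9048 with a mean of at least 10 CPM with r = 0.751 and rho = 0.652, a description over genes, which are not independent. Mup20 changed by -6.55 ± 0.41 in siHnf4a siCebpa against siCebpa and by -6.44 ± 0.38 in siHnf4a against siCon, Cyp2a12 by -5.02 and -4.74 ± 0.19, and Acer2 by 1.70 and 1.48 ± 0.10.

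**Figure D4:**
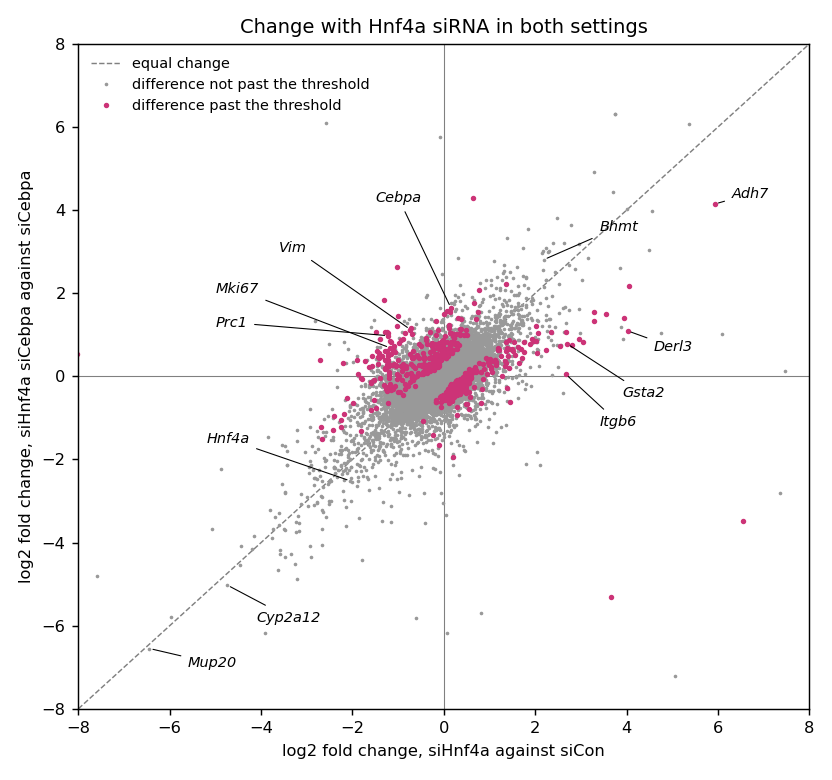
Log2 fold change of each of the 15090 genes in siHnf4a siCebpa against siCebpa (vertical) and in siHnf4a against siCon (horizontal). Coloured points are the 576 genes whose change differed between the settings, and 5 genes beyond 8 log2 units are not drawn. Most genes lie along the dashed line of equal change, while Itgb6, Derl3 and Gsta2 lie below the line and Mki67, Prc1 and Vim above it.

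The difference between both effects was tested directly, as the change in siHnf4a siCebpa against siCebpa minus the change in siHnf4a against siCon. Cebpa mRNA was itself higher in siHnf4a siCebpa than in siCebpa. A difference in the effect of less Hnf4a therefore cannot be told apart from an effect of that higher Cebpa mRNA. It passed for 576 genes (3.82%), 300 with a higher value in the presence of Cebpa siRNA (1.99%) and 276 with a lower one (1.83%), of which 120 (0.795%) and 46 (0.305%) differed at least 2-fold. This count depended on the fit more than the others. Without the mouse term 8 and 5 genes passed, with the length trend removed 199 and 103, of which 274 were among the 576, and 239 and 58 on log2 TPM. Of the 276 lower calls 143 came from the eighth of genes with the shortest transcripts, whose median difference was -0.223, against 0.126 in the longest. The genes named next kept their call with the length trend removed, apart from Prg4, and most lost it without the mouse term.

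Several stress and detoxification genes rose less with Hnf4a siRNA over siCebpa than over siCon, and each siCebpa library was above the siCon library of the same mouse for the 8 genes named here. Itgb6, an integrin subunit, was at 10.1, 47.2 and 63.6 CPM in siHnf4a siCebpa and 9.16, 48.7 and 59.4 CPM in siCebpa, and at 7.12, 41.3 and 50.7 CPM in siHnf4a and 1.55, 5.97 and 7.36 CPM in siCon. In 3 of 3 mice the siCon library was the lowest, and the others were close to each other. The difference of effects was -2.61 ± 0.14 (edgeR adjusted p = 2.98e-05). Derl3, of endoplasmic reticulum degradation, was at 28.3, 23.1 and 17.3 CPM in siHnf4a siCebpa and 10.4, 11.3 and 10.003 CPM in siCebpa, and at 21.1, 17.9 and 12.3 CPM in siHnf4a and 0.555, 1.05 and 1.49 CPM in siCon (-2.93 ± 0.37, edgeR adjusted p = 0.00512). Gsta1 was at 509.9, 714 and 928 CPM in siHnf4a siCebpa and 312, 353 and 663 CPM in siCebpa, and at 427, 558 and 866 CPM in siHnf4a and 80.98, 87.9 and 145 CPM in siCon (-1.81 ± 0.14, edgeR adjusted p = 0.000329). For Gsta1 the rise was present in both settings and smaller with Cebpa siRNA. Gstm3 (-2.05 ± 0.30), Gsta2 (-1.92 ± 0.17), its neighbour Gm10639 (-1.96 ± 0.12) and Il1f9 (-1.87 ± 0.39) did the same, with edgeR adjusted p from 7.46e-05 for Gm10639 to 0.0298 for Il1f9. Trdc, annotated as the constant segment of the T cell receptor delta chain, did so too (-2.04 ± 0.22, edgeR adjusted p = 0.00251), at 10.8, 42.3 and 81.02 CPM in siHnf4a siCebpa and 8.299, 21.995 and 32.8 CPM in siCebpa, and at 8.79, 38.5 and 60.3 CPM in siHnf4a and 1.39, 4.52 and 7.48 CPM in siCon, while the T cell marker Cd3e was between 0.172 and 1.02 CPM in all 12 libraries. Of the 47 NRF2 and redox genes the difference passed for 20 in this direction and 0 in the other, and of 45 endoplasmic reticulum stress genes for 9 and 0. It passed for 15 and 1 of 81 phase I enzymes and for 12 and 1 of 57 conjugation enzymes. These list counts were not refitted under the alternatives. Over all 15090 genes 5 passed in this direction without the mouse term, and 103 with the length trend removed. The Il1f9 difference lost its call without any 1 of 8 of the 12 libraries, at adjusted p up to 0.094.

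Proliferation genes gave the opposite sign: Prc1, Mki67 and Anln were lower in siHnf4a than in siCon in every mouse, and their siCebpa libraries were below the siCon library of the same mouse. Prc1, a spindle midzone protein, was at 1.95, 11.2 and 20.4 CPM in siHnf4a siCebpa and 1.43, 6.99 and 7.26 CPM in siCebpa, and at 2.03, 11.6 and 12.05 CPM in siHnf4a and 5.197, 26.9 and 25.9 CPM in siCon. Mouse 1 was low in every group. The difference was 2.20 ± 0.27 (edgeR adjusted p = 0.00453). Mki67, the proliferation marker Ki-67, was at 1.87, 14.2 and 28.6 CPM in siHnf4a siCebpa and 1.51, 11.7 and 12.3 CPM in siCebpa, and at 2.82, 15.8 and 20.1 CPM in siHnf4a and 7.06, 37.2 and 39.2 CPM in siCon (1.87 ± 0.31, edgeR adjusted p = 0.013), a call lost without siHnf4a replicate 2 or siCon replicate 2 (adjusted p up to 0.0572). Anln, another protein of cytokinesis, gave 1.62 ± 0.26. Of 52 cell cycle genes the difference passed for 15, all positive: 37 were lower and 1 higher in siHnf4a against siCon, with a median of -0.77, against 8 lower and 6 higher in siHnf4a siCebpa against siCebpa. The count of 15 was not refitted under the alternatives, and without the mouse term 8 of all 15090 genes had a positive difference past the threshold. The rises of Prc1 (0.98 ± 0.20, edgeR adjusted p = 0.00499) and Mki67 (0.69 ± 0.22, edgeR adjusted p = 0.0429) over siCebpa rested on mouse 3: without siHnf4a siCebpa replicate 3 they were 0.61 and 0.28, the second no longer called, and both calls were lost without the mouse term (adjusted p = 0.495 and 0.667).

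The other positive differences named came from unlike levels. 2310022B05Rik, a gene with no role given here, was at 46.7, 47.1 and 50.2 CPM in siHnf4a siCebpa and 16.4, 16.98 and 15.05 CPM in siCebpa, and at 56.3, 59.6 and 73.3 CPM in siHnf4a and 50.8, 65.8 and 64.7 CPM in siCon (1.51 ± 0.15, edgeR adjusted p = 0.00129). Vim was at 402, 445 and 539 CPM in siHnf4a and 465, 957 and 981 CPM in siCon, so its siCebpa libraries were the lowest within each mouse (1.86 ± 0.22, edgeR adjusted p = 0.0036). Cebpa was also lowest in siCebpa (1.49 ± 0.17, edgeR adjusted p = 0.00286). Prg4, lubricin, was at 6.56, 8.48 and 17.3 CPM in siHnf4a siCebpa and 13.3, 8.404 and 7.88 CPM in siCebpa, and at 19.1, 17.9 and 15.2 CPM in siHnf4a and 46.3, 62.1 and 88.99 CPM in siCon, with the 3 siCon libraries highest (1.93 ± 0.47, edgeR adjusted p = 0.0485). Serpinb9b, a protease inhibitor (1.72 ± 0.30), and Gm20431, which overlaps Tmem189 and Ube2v1 on the same strand (1.82 ± 0.34), completed the positive differences named. Of these, Prg4 lost its call without any 1 of 10 of the 12 libraries, Gm20431 without any 1 of 4 and Serpinb9b without any 1 of 2 (adjusted p up to 0.126, 0.0801 and 0.0696).

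**Figure D5:**
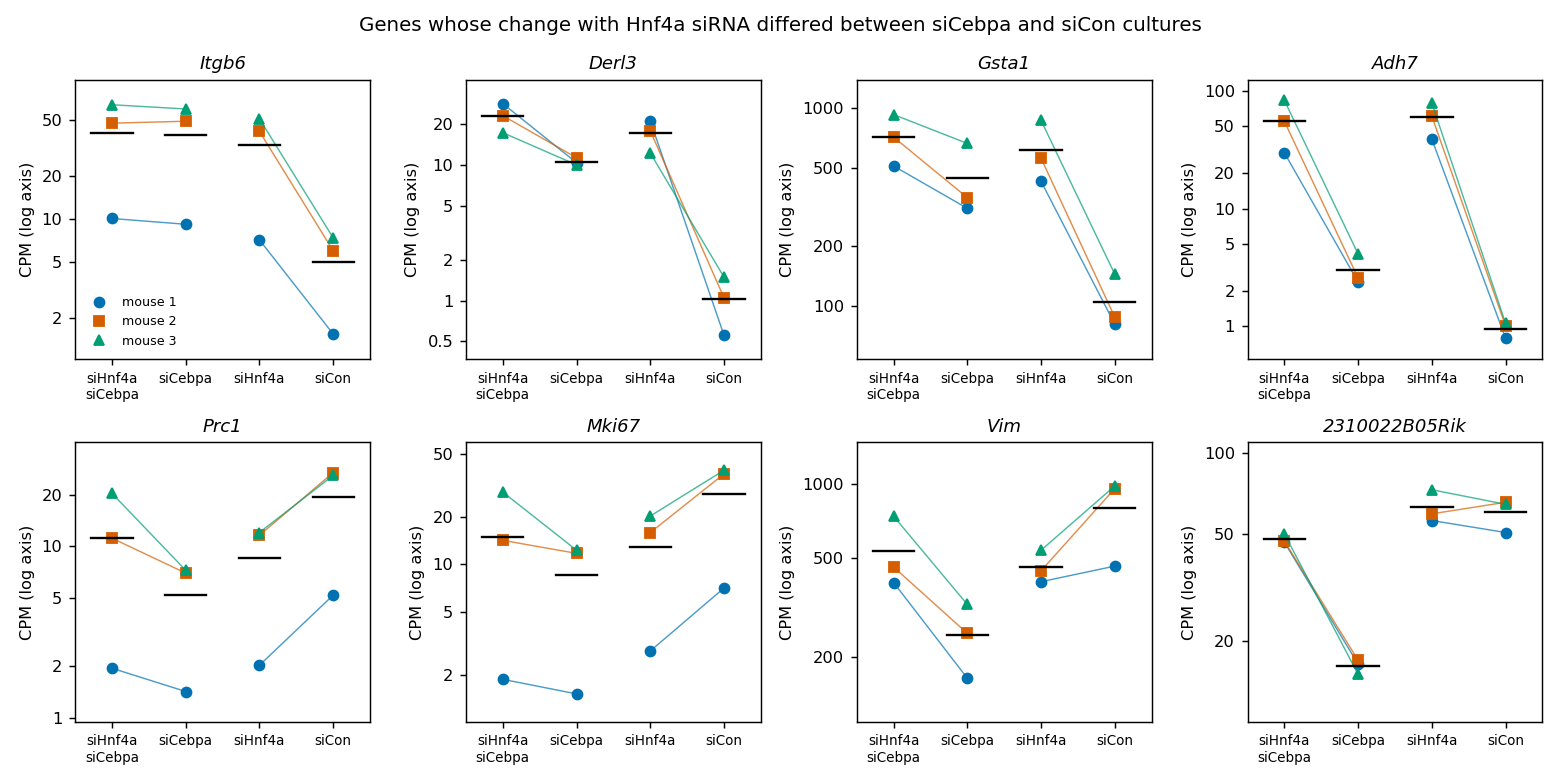
Levels in CPM, on log axes, of 8 genes whose change with Hnf4a siRNA differed between siCebpa and siCon cultures. Points are libraries with 1 symbol per mouse, lines join libraries of 1 mouse within a comparison, and black bars are group means (n = 3). Itgb6 is low in siCon alone, 2310022B05Rik is low in siCebpa alone, and Prc1 and Mki67 fall towards siHnf4a in the right pair of groups.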

How the data were processed

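RNA sequencing (BGISEQ-500) of 12 libraries of primary mouse hepatocytes was used. The authors deposited estimated counts and TPM per Ensembl gene, made with Trim Galore 0.6.4 and kallisto 0.4.6 on GRCm38.p6, per the submitters' processing notes. The deposited estimated counts were rounded to whole numbers. Groups came from the sample titles, and the design text of the series gives the MPH number as that of a mouse. Libraries of 1 mouse deviated together (r from 0.156 to 0.684 over 18 pairs), and all 12 correlated best with their own mouse.

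Counts were tested with edgeR 4.0.16 (R 4.3.3): TMM factors of 0.9475 to 1.038, filterByExpr (15090 genes kept, 40295 not), 4 groups and mouse as a term over all 12 libraries, 6 residual degrees of freedom, two-sided, Benjamini-Hochberg adjustment, threshold 0.05. The script was checked on simulated data. Alternatives were no mouse term, DESeq2 1.42.0, RLE factors, other count filters, the 6 compared libraries alone, each library left out, and limma 3.58.1 on log2 of the deposited TPM + 1 (genes of at least 1 TPM in 3 libraries). An alternative that removed a length trend was chosen after seeing the data.

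Of 55385 identifiers, 55144 were matched to a symbol, 54487 of them with the version. Named genes were Hnf4a, Cebpa and Alb, the 12 largest rises and falls (at least 10 CPM, 1 sign in 3 mice), the 8 largest called differences between settings in each direction (at least 10 CPM over 12 libraries), liver transcription factors and up to 6 called members per list plus its most abundant one. Other genes are marked as chosen after their values were seen. The members, lists and tests were chosen with earlier results of these data known. With mouse as a term, the p values weigh changes within mice against the spread left over in 12 libraries from 3 mice. That spread leaves out the level differences between mice. Some genes of these lists are not reported here.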

Additional observations from a re-analysis of the deposited data

Results flagged for a closer look

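The change with Hnf4a siRNA differed between cultures with and without the Cebpa siRNA for 32 of the genes given above, by a test of the difference itself (edgeR quasi-likelihood test, adjusted over 15090 genes). It cannot be told apart from an effect of the higher Cebpa mRNA in siHnf4a siCebpa than in siCebpa. Of these, 8 in each direction were named for the size of a called difference, so their passing was fixed by that choice. Over all genes 3.82% passed, 300 with a positive and 276 with a negative value. Values are the log2 fold change in siHnf4a siCebpa against siCebpa minus that in siHnf4a against siCon, and 20 of the 32 were negative. Among glutathione transferases and redox genes they were -1.81 for Gsta1, -1.92 for Gsta2, -1.96 for Gm10639, -2.05 for Gstm3, -1.18 for Gclc, -0.93 for Nqo1, -1.12 for Srxn1, -1.61 for Cbr3 and -0.55 for Aox1. Among genes of the endoplasmic reticulum they were -2.93 for Derl3, -0.75 for Creld2, -0.53 for Dnajb9 and -0.47 for Hspa5. Other negative values were -2.61 for Itgb6, -2.04 for Trdc, -1.87 for Il1f9, -1.79 for Adh7 and -1.17 for Apoa1. Apoa1, Dnajb9 and Hspa5 lost the call without any 1 of 10 of the 12 libraries (adjusted p up to 0.162, 0.107 and 0.126). Aox1 lost it without any 1 of 6 (up to 0.0801). Apoa1 was also not called on log2 TPM, with RLE factors, with a stricter count filter or with the length trend removed. On log2 TPM the Adh7 difference was -0.50 (limma adjusted p = 0.457). The uneven transcripts Gm11175 and Pgam1-ps2 gave -10.02 and -8.97. Each was at 0 in siHnf4a siCebpa replicates 1 and 2 and in siCon replicate 3, so these values depend on the prior count and are no bound. Without siHnf4a siCebpa replicate 3 they were -18.05 and -15.07, and without siHnf4a replicate 3 that of Pgam1-ps2 was -0.54. The Gm11175 call was lost without any 1 of 3 of the 12 libraries and that of Pgam1-ps2 without any 1 of 8 (adjusted p up to 0.0631 and 0.953).

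Positive values were 2.20 for Prc1, 1.87 for Mki67 and 1.62 for Anln, genes of cell division. They were 1.86 for Vim, 1.37 for Git1, 0.50 for Sox4 and 0.86 for Plat. Sox4 lost the call without any 1 of 10 of the 12 libraries (edgeR adjusted p up to 0.0962) and with the length trend removed (0.109). Plat lost it without any 1 of 2 (up to 0.0572). Cebpa gave 1.49, 2310022B05Rik 1.51, Prg4 1.93, Serpinb9b 1.72 and Gm20431 1.82. Adjusted p for these 32 genes ran from 2.98e-05 for Itgb6 to 0.0485 for Prg4 (edgeR). Of the 32 calls 4 were kept without the mouse term, 21 on log2 TPM, 28 with the length trend removed and 19 to 30 with 1 library left out.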

How the results depend on the processing

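None of the 134 called changes given for siHnf4a siCebpa against siCebpa, nor of the 32 called differences of effects, reversed its sign under any alternative run. Calls were less stable than signs. Of the 134, 104 stayed called without the mouse term, 126 on log2 TPM, 128 in the 6 compared libraries alone and 119 in every fit that left out 1 library. Changes in siHnf4a against siCon were not followed gene by gene. Without the mouse term, genes higher and lower numbered 983 and 976 in siHnf4a siCebpa against siCebpa, 1093 and 1100 in siHnf4a against siCon, and 8 and 5 for the difference of effects. On log2 TPM 786 genes were lower in the first comparison and 58 had a lower difference. For the difference, DESeq2 called 496 higher and 444 lower, the absence of a count filter 568 and 461, and removal of the length trend 199 and 103. With each library left out in turn, 1278 to 1878 genes were higher and 1236 to 2011 lower in siHnf4a siCebpa against siCebpa, 1335 to 2169 and 1487 to 2267 in siHnf4a against siCon, and 53 to 414 and 50 to 456 for the difference. The causes were not tested. The fits rest on 3 mice and 6 residual degrees of freedom, and the smallest change they could detect was not measured by level.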
